A study of Mus musculus with 2 samples.

Results

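The 7 cholinergic interneuron genes Chat, Slc5a7, Slc18a3, Lhx8, Ecel1, Tacr1 and Gbx2 were read out in RNA bound to tagged ribosomes from the mouse ventral striatum. They were taken by symbol from the 32531 gene symbols of the count files, and all 7 were found. Reads came from 2 libraries, replicates 1 and 2 of a single group, made from untreated adult control mice of the Stard5-TRAP line JX5852, in which a fusion of EGFP to the ribosomal protein Rpl10a is expressed under the control of Stard5. Translating ribosome affinity purification (TRAP) pulls the fusion out of homogenised tissue with antibodies to EGFP and recovers the RNA bound to those ribosomes. The labels give neither the number, sex nor pooling of the animals nor which cells of this line carry the tag. The spread between the libraries may therefore be technical. Input RNA, other lines and other conditions were not analysed here, and enrichment against the tissue was therefore not computed.

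Cholinergic interneurons are the large, tonically active local neurons of the striatum, few in number, that release acetylcholine onto the far more common spiny projection neurons. Acetylcholine is made in the nerve ending from choline and acetyl coenzyme A by choline acetyltransferase, loaded into vesicles by the vesicular acetylcholine transporter, and broken down outside the cell by acetylcholinesterase, after which choline is taken up again. In the mouse, these cells arise in the ventral forebrain under LIM homeodomain transcription factors, and relatives of the same origin populate the basal forebrain beside the ventral striatum.

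The libraries held 25830282 (replicate 1) and 29574781 (replicate 2) reads in genes. CPM is used for levels: reads per 1000000 reads in genes, with exact Poisson 95% intervals for single libraries and mean ± SD over the 2 libraries. The detection threshold was 1 CPM, reached in both libraries by 12374 genes, 38.0% of all symbols. Stard5 itself stood at 166 and 54.9 CPM in replicates 1 and 2. Of 15 markers of spiny projection neurons, all 15 were detected. The list does not separate ventral from dorsal striatum, so the ventral label was not tested. In bulk RNA of this kind, fewer cells of a type and less RNA per cell cannot be told apart.

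Of the 7 genes, 6 were detected in both libraries, and Gbx2 had 0 reads in both. On the CPM scale the order was the same in each library, with Slc5a7 first, then Lhx8, Tacr1, Chat, Ecel1 and Slc18a3. The 7 genes together held 3002 reads in replicate 1 and 4640 reads in replicate 2, a summed level of 116 and 157 CPM. The median of the 7 mean levels was 17.2 CPM, against 23.1 CPM over all detected genes and 7.14 CPM over the 18929 genes with a read in either library.

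**Figure D1:**
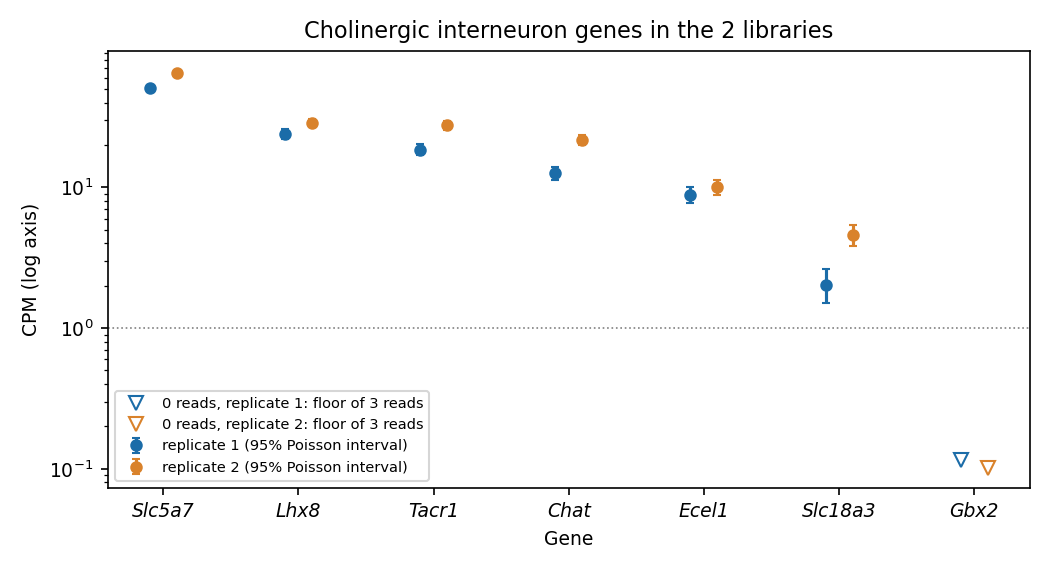
CPM of each gene on a log axis in replicate 1 (blue) and replicate 2 (orange), with exact Poisson 95% intervals as bars. Slc5a7 was highest at 50.5 and 64.4 CPM, and the open triangles for Gbx2 mark the floor of 3 reads, since it had 0 reads; the dotted line is the detection threshold of 1 CPM.

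Chat encodes choline acetyltransferase, the enzyme that makes acetylcholine and the defining marker of cholinergic neurons. It had 324 reads in replicate 1 and 644 in replicate 2. These counts correspond to 12.5 CPM (95% interval 11.2 to 13.99) and 21.8 CPM (20.1 to 23.5), with a mean of 17.2 ± 6.53 CPM (SD, n = 2). The intervals did not overlap, and replicate 2 was the higher library. By mean level, 43.2% of the detected genes stood below Chat.

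Slc18a3 encodes the vesicular acetylcholine transporter, which fills synaptic vesicles. It was the lowest of the detected genes of the group, with 52 reads in replicate 1 and 135 in replicate 2. Replicate 1 gave 2.01 CPM (95% interval 1.504 to 2.64) and replicate 2 gave 4.56 CPM (3.83 to 5.40), or 3.29 ± 1.80 CPM (SD, n = 2), again without overlap of the intervals. Only 9.73% of the detected genes had a lower mean level.

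The 2 genes share a site in the genome known as the cholinergic gene locus. In the GENCODE M21 annotation of GRCm38, Chat (ENSMUSG00000021919.8) spans chr14:32408203-32465989 on the minus strand, and its main transcript has 16 exons. Slc18a3 (ENSMUSG00000100241.1) is a single exon of 2413 bases at chr14:32462438-32464850, on the same strand and wholly inside the first intron of that transcript, of which it fills 49.3%. It starts 1139 bases downstream of the first annotated Chat start. No exon base of either gene is shared with another gene, and the exons of the pair do not overlap. Reads of unspliced Chat RNA that fall on the Slc18a3 exon cannot be told apart from Slc18a3 reads.

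**Figure D2:**
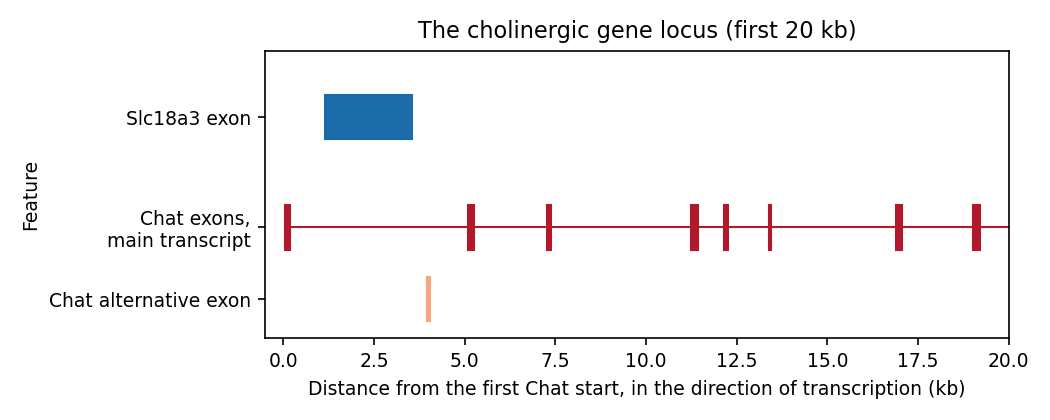
Annotated exons of Slc18a3 (blue) and Chat (red, main transcript; pale, an alternative exon) over the first 20 kb, plotted as distance in kb from the first Chat start in the direction of transcription. The single Slc18a3 exon lies between the first and second exons of the main Chat transcript.

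The start regions of both genes are shown because they lie side by side, and that of Slc5a7 because it had the most reads of the group. Each line runs 5′ to 3′ on the gene's own strand, from 250 bases before the start to 50 bases from it onward, as given by RefSeq for GRCm38.p6, at chr14:32465860-32466159 for Chat, chr14:32464801-32465100 for Slc18a3 and chr17:54298985-54299284 for Slc5a7, all on the minus strand. Capitals mark the E-box CACGTG and the GC box GGGCGG in either orientation.
Chat: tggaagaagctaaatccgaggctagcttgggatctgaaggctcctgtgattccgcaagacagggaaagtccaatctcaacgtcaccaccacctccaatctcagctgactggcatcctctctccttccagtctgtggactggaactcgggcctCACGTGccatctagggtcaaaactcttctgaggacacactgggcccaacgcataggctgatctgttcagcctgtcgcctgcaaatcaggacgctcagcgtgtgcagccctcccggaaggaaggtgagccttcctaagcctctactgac
Slc18a3: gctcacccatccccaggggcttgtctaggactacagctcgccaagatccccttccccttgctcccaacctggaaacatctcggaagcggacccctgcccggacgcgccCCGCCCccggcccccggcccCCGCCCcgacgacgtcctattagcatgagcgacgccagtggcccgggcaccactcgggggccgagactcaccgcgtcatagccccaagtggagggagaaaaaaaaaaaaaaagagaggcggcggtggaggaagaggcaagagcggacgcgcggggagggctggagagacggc
Slc5a7: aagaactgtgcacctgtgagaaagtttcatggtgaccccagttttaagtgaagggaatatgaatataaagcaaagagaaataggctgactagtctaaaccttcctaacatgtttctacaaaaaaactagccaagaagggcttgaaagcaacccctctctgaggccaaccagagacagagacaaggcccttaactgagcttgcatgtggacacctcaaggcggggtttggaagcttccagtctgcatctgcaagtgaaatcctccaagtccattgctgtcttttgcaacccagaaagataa

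The Chat and Slc18a3 windows are 759 bases apart and differ in composition. The Chat window had 55.7% G and C and held a single CACGTG that begins at position -98. Here -1 is the last base before the RefSeq start, which for Chat lies downstream of the first GENCODE start at 32465989. Some bases before the RefSeq start of Chat are therefore annotated Chat exon. The motif was present in 7.15% of 32817 RefSeq promoter windows of the same length. The Slc18a3 window had 67.0% G and C and held 2 GC boxes, a motif found in 35.6% of all windows. The Slc5a7 window had 44.7% G and C, against a median of 52.7% over all windows, and held neither motif. The homeodomain core motifs TAATTA and TAATTG, searched on both strands and found in 12.4% of all windows, were in none of the 7 windows. These matches describe letters in a window and say nothing of binding.

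Of the reads of Chat and Slc18a3 together, the Slc18a3 share was 13.8% in replicate 1 (10.5 to 17.7, Clopper-Pearson 95% interval), while replicate 2 gave 17.3% (14.7 to 20.2). The intervals of the libraries overlapped. The log2 difference of Slc18a3 minus Chat was -2.10 ± 0.10 on the log2(CPM + 1) scale (SD, n = 2). Per kilobase of exon, without a pseudocount, it was -1.48 ± 0.27, a level of Slc18a3 0.357 times that of Chat. Exon length here merges the exons of all annotated transcripts of a gene, 4703 bases over 8 transcripts for Chat. The length of the main Chat transcript alone is shorter and would give Chat a higher level per kilobase. Levels at that length were not computed. Slc18a3 was the lower of the pair in both libraries on either scale. Differences between genes were not tested over the 2 libraries.

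Slc5a7 encodes the high-affinity choline transporter, which returns choline to the nerve ending and limits the rate of acetylcholine synthesis. The gene (ENSMUSG00000023945.7, chr17:54273590-54299034, minus strand) had 1304 reads in replicate 1 and 1906 in replicate 2. These libraries gave 50.5 CPM (95% interval 47.8 to 53.3) and 64.4 CPM (61.6 to 67.4), or 57.5 ± 9.87 CPM (SD, n = 2), above 71.7% of the detected genes. It took 43.4% of the reads of the 7 genes in replicate 1 and 41.1% in replicate 2. Slc5a7 stood above Chat in both libraries, by 1.72 ± 0.29 on the log2(CPM + 1) scale and by 1.52 ± 0.31 log2 units per kilobase of exon (SD, n = 2). The last value is a 2.88-fold higher level per kilobase, at exon lengths merged over all annotated transcripts. The margin was wider in replicate 1, in which Chat took 19.9% of the reads of the pair (Clopper-Pearson 95% interval 17.99 to 21.9), than in replicate 2, in which it took 25.3% (23.6 to 27.0).

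Lhx8 encodes a LIM homeodomain transcription factor needed in the mouse for the formation of forebrain cholinergic neurons. The gene (ENSMUSG00000096225.7, chr3:154306294-154330659, minus strand) had 615 reads in replicate 1 and 847 in replicate 2. In CPM, replicate 1 stood at 23.8 (95% interval 22.0 to 25.8) and replicate 2 at 28.6 (26.7 to 30.6), or 26.2 ± 3.42 CPM (SD, n = 2). The intervals lay close to each other without overlap. On the log2(CPM + 1) scale Slc5a7 exceeded Lhx8 by 1.10 ± 0.06, but the exons of Slc5a7 span 5644 bases and those of Lhx8 2532. Per kilobase of exon the difference was -0.03 ± 0.06 log2 units, with Lhx8 ahead in replicate 1 and Slc5a7 ahead in replicate 2, so the pair did not differ beyond the spread.

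Gbx2, a homeobox gene active in mouse embryonic precursors that give rise to striatal cholinergic interneurons, had 0 reads in both libraries. The floor of 3 reads lies at 0.116 CPM for replicate 1 and at 0.101 CPM for replicate 2. The upper limit of the exact Poisson 95% interval is higher, at 0.143 and 0.125 CPM, and both cover counting error only. The gene (ENSMUSG00000034486.8) lies at chr1:89927956-89931179 on the minus strand. Of its 2177 exon bases, 43.5% overlap the annotated gene D130058E05Rik, which is not among the counted symbols and is not analysed here. Whether reads on Gbx2 were lost in the authors' counting was not tested. Its start region is shown because it was the only one of the 7 with both motif types, although the gene had 0 reads. It lies at chr1:89931127-89931426 on the minus strand, with the same marks.
Gbx2: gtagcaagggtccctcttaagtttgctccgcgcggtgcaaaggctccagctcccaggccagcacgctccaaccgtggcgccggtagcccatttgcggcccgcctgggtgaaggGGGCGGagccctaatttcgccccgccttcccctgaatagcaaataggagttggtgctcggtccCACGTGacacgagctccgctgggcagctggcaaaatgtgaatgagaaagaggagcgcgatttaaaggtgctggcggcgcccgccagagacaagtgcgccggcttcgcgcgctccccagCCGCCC

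That window had 64.7% G and C, with CACGTG at position -74 and GC boxes at positions -137 and 45, counted as above to the first base of each motif on the printed strand.

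Tacr1 encodes the NK1 receptor, the receptor for the neuropeptide substance P, which in the striatum is found on cholinergic interneurons and also on interneurons that make somatostatin. The gene (ENSMUSG00000030043.11, chr6:82402334-82560104, plus strand) had 478 reads in replicate 1 and 813 in replicate 2. The receptor gene reached 18.5 CPM (95% interval 16.9 to 20.2) in replicate 1, while replicate 2 held 27.5 CPM (25.6 to 29.4), or 23.0 ± 6.35 CPM (SD, n = 2). Replicate 2 was the higher library, without overlap of the intervals.

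Ecel1 encodes a membrane metalloprotease of the neprilysin family. The gene (ENSMUSG00000026247.13, chr1:87147655-87156521, minus strand) had 229 reads in replicate 1 and 295 in replicate 2. Replicate 1 held 8.87 CPM (95% interval 7.75 to 10.1) and replicate 2 held 9.97 CPM (8.87 to 11.2), or 9.42 ± 0.784 CPM (SD, n = 2). It was the only detected gene of the group whose intervals overlapped between the libraries. The share of all detected genes without overlap was not computed. By adjusted p alone (exact binomial test, described below), 78.9% of all detected genes differed between the libraries. The spread of Ecel1 was the smallest of the group, at 8.33% of the mean, against 54.9% for Slc18a3, the largest.

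Since CPM grows with transcript length, levels of different genes were also compared as CPM per kilobase of annotated exon. Exon length was merged over all annotated transcripts of a gene, and the levels and their order rest on that choice. By mean level on this scale the genes fell into a higher pair, a middle trio and Slc18a3. In replicate 2, however, Ecel1 lay about as far from Tacr1 (0.57 log2 units) as from Slc18a3 (0.59 log2 units). Lhx8 stood at 10.4 ± 1.35 and Slc5a7 at 10.2 ± 1.75 CPM per kilobase, above 68.6% and 68.1% of the 11465 detected genes with a known exon length. Chat was next at 3.65 ± 1.39, then Tacr1 at 3.54 ± 0.979 and Ecel1 at 2.69 ± 0.224 CPM per kilobase. Slc18a3 was lowest at 1.36 ± 0.748 CPM per kilobase (SD, n = 2 for each), and the median over the detected genes was 5.31 CPM per kilobase.

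Neighbours in this order could not all be told apart. Chat minus Tacr1 was 0.02 ± 0.16 log2 units per kilobase, with opposite signs in the libraries, and Lhx8 and Slc5a7 were likewise within the spread. The steps from Slc5a7 to Chat (1.52 ± 0.31 log2 units), Tacr1 to Ecel1 (0.37 ± 0.28) and Ecel1 to Slc18a3 (1.10 ± 0.71) kept their sign in both libraries and exceeded their SD (n = 2). Exceeding an SD of 2 values is a description only, and these steps were not tested. On the CPM scale, by contrast, the step from Lhx8 to Tacr1, 0.21 ± 0.22 log2 units, was the only one within its SD.

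**Figure D3:**
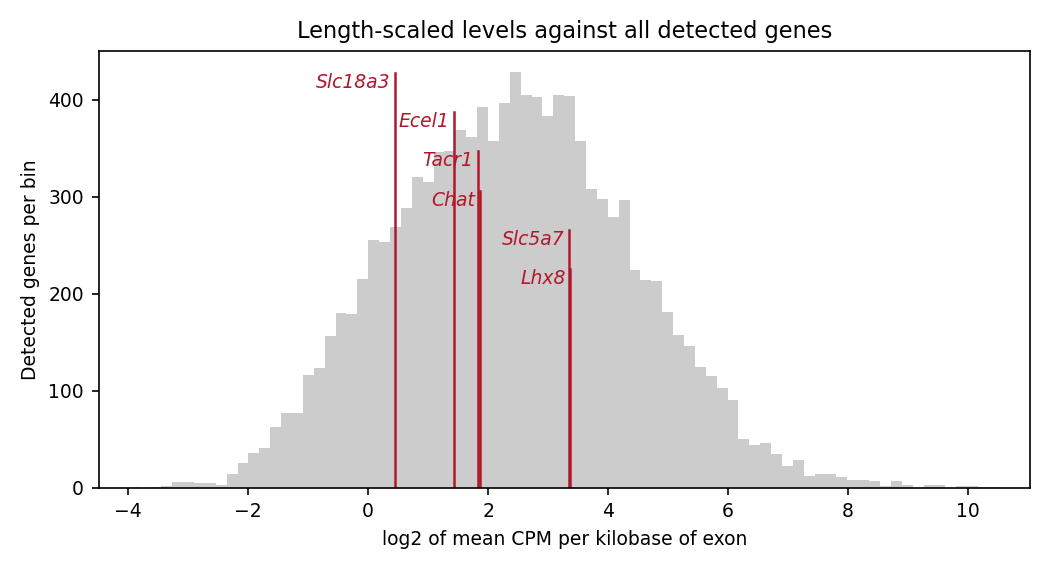
Histogram of the log2 of mean CPM per kilobase of exon over the 11465 detected genes with a known exon length, with a red line at each of the 6 detected genes of the group. Lhx8 and Slc5a7 lie together to the right of the median, Tacr1 and Chat together to its left, and Slc18a3 farthest left; Gbx2 had 0 reads and is not drawn.

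The genes whose length-scaled level over the 2 libraries was nearest to that of Chat were Esco1, P4htm and Stx3, at distances of 0.02, 0.03 and 0.04 in log2(CPM per kilobase + 1). For Slc5a7 they were Mgll, Shank3 and Slc6a8, at 0.02, 0.02 and 0.03. With 2 libraries many genes come this close: 172 of the other 11464 genes lay within 0.25 of Chat and 297 within 0.25 of Slc5a7.

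All 6 detected genes had a higher level in replicate 2, and Slc18a3 alone passed the threshold for a difference. Reads of each detected gene were compared between the libraries with a 2-sided exact binomial test on library sizes scaled by TMM, the trimmed mean of log ratios, with Benjamini-Hochberg adjustment over all 12374 detected genes, and a gene was called at an adjusted p below 0.05 and a ratio of 2-fold or more. This test compares 2 libraries of the same group and takes in counting error only. Over all detected genes, 17.4% were called in either direction, 9.57% with the higher value in replicate 2 and 7.78% with the higher value in replicate 1. Slc18a3 was called as higher in replicate 2, with a log2 ratio of 1.21 (adjusted p = 1.85e-07, exact binomial test). The count of 1 in 6 is close to the background. A log2 ratio above 0 was found for 49.8% of all detected genes, against 6 of the 6 genes of the group.

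The other log2 ratios of replicate 2 over replicate 1 were below 2-fold. They were 0.82 for Chat (adjusted p = 3.82e-17, exact binomial test), 0.60 for Tacr1 (9.29e-13), 0.38 for Slc5a7 (6.10e-13) and 0.29 for Lhx8 (0.000207). For Ecel1 the log2 ratio was 0.20 and did not pass (adjusted p = 0.150, exact binomial test). By adjusted p alone 5 of the 6 genes were higher in replicate 2, but so were 39.1% of all detected genes, and 78.9% differed in either direction. The median log2 ratio was 0.49 over the 6 genes and -0.002 over all detected genes.

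**Figure D4:**
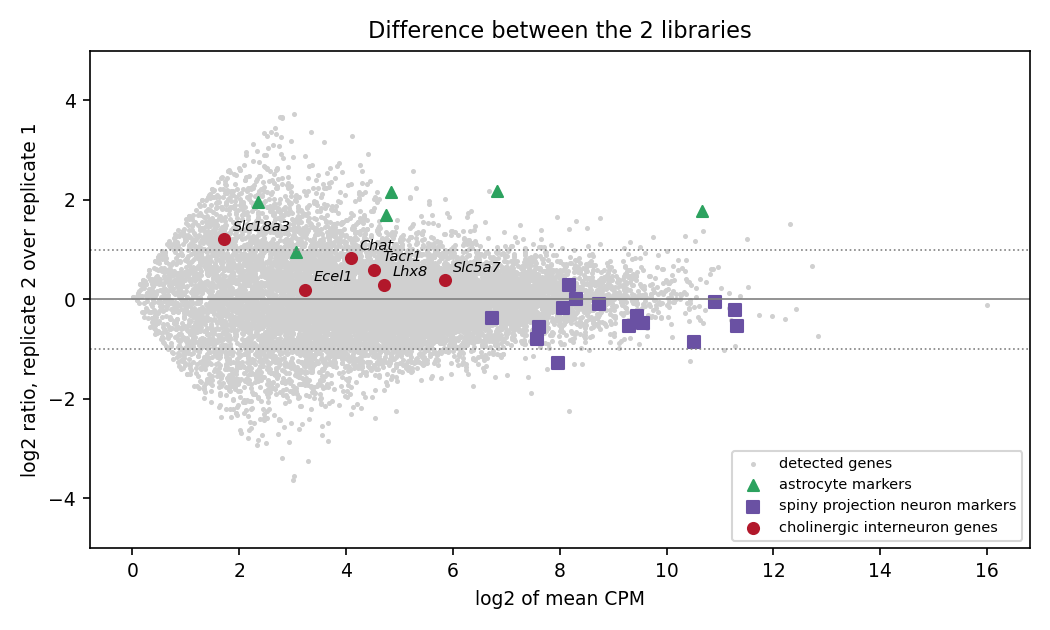
Log2 ratio of replicate 2 over replicate 1 against log2 of mean CPM for all detected genes (grey), the 6 detected cholinergic interneuron genes (red circles), 6 astrocyte markers (green triangles) and 15 spiny projection neuron markers (purple squares). Dotted lines mark a 2-fold ratio; the red circles all lie above 0, with Slc18a3 alone beyond 2-fold, below most of the astrocyte markers.

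Markers of other cells moved between the libraries too. The summed level of the 6 astrocyte markers was 814 CPM in replicate 1 and 2788 CPM in replicate 2, with 6 of 6 detected, 5 called as higher in replicate 2 and a median of 1.87 for the log2 ratio. The glutamate transporter genes Slc1a2 and Slc1a3 stood at 1619 ± 1241 and 113 ± 101 CPM in this list, with Aqp4 at 28.8 ± 25.6 CPM and Aldh1l1 lowest at 5.12 ± 4.23 CPM (SD, n = 2). The summed level of the 6 oligodendrocyte markers was 837 and 1290.0 CPM in replicates 1 and 2, with 2 of 6 called as higher in replicate 2. Of all detected genes, 49.8% had a log2 ratio above 0. By contrast, 13 of the 15 spiny neuron markers had a log2 ratio below 0 (14 with total counts in place of TMM). Their median ratio was -0.37, with 1 called as higher in replicate 1 (Tac1, chosen after its value was seen) and summed levels of 14274 and 10810.5 CPM. Microglial markers summed to 160.0 and 123 CPM with 0 of 6 called by the exact binomial test at 2-fold, though by adjusted p alone 4 were higher in replicate 1 and 1 in replicate 2. Endothelial markers summed to 20.5 and 16.1 CPM, with 1 of 4 tested genes called as higher in replicate 1 (Pecam1, chosen after its value was seen). The part of these shifts in the ratios of the cholinergic genes was not tested.

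Genes that handle acetylcholine outside the group of 7 were also present, with 6 of 7 detected and a list median of 10.2 CPM. Of these 6, 4 had a log2 ratio of replicate 2 over replicate 1 above 0 and 2 below 0. The broadly expressed choline transporter gene Slc44a1 was highest at 50.1 ± 0.550 CPM. Ache, which encodes acetylcholinesterase, stood at 18.6 ± 0.424 CPM, and Slc10a4, an orphan vesicular transporter found in cholinergic and monoaminergic neurons, at 11.8 ± 1.38 CPM (SD, n = 2). Ache differed little between libraries, at 18.9 and 18.3 CPM, while Chat differed by 0.82 log2 units. Colq, which encodes the collagen tail that anchors acetylcholinesterase at the neuromuscular junction, had 0 reads in replicate 1 and 1 read in replicate 2. The 2 genes of this list called as higher in replicate 2, named here after their values were seen, were the brain anchor gene of acetylcholinesterase, Prima1 (2.90 and 10.2 CPM), and Slc17a8, the vesicular glutamate transporter that cholinergic interneurons also carry (6.66 and 13.7 CPM).

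Developmental regulators of forebrain cholinergic neurons were mixed, with 4 of 7 detected and a median of 2.49 CPM. Of these 4, 2 had a log2 ratio of replicate 2 over replicate 1 above 0 and 2 below 0. The factor gene Etv1 was highest at 73.3 ± 22.8 CPM. Isl1, a LIM homeodomain gene that acts with Lhx8 in cholinergic neurons and is also used by developing spiny neurons of the direct pathway, stood at 27.4 ± 18.8 CPM. It had 40.7 CPM in replicate 1 and 14.03 CPM in replicate 2, a log2 ratio of -1.51 that was called as higher in replicate 1, opposite in sign to all 6 detected genes of the group. Nkx2-1, which specifies the ventral forebrain region where these cells arise, had 3.91 and 8.08 CPM in replicates 1 and 2, or 5.996 ± 2.95 CPM (SD, n = 2), and was called as higher in replicate 2.

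Of 5 receptor and channel genes known in cholinergic interneurons, though not restricted to them, 4 were detected. The neurokinin receptor gene Tacr3 stood at 9.01 ± 0.593 CPM, and the pacemaker channel gene Hcn2 at 5.07 ± 2.96 CPM. Crhr1 was lowest at 0.848 ± 0.378 CPM (SD, n = 2). Within this list only Hcn2 was called between the libraries, as higher in replicate 2 (2.98 and 7.17 CPM). Of the 4 detected genes, 3 had a log2 ratio above 0 and 1 below 0.

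Of 16 acetylcholine receptor genes, through which the transmitter acts on its targets, 8 were detected, with a median of 1.73 CPM. The muscarinic receptor gene Chrm1 was highest at 63.9 ± 3.67 CPM, followed by the nicotinic subunit genes Chrnb2 at 28.1 ± 2.64 and Chrna4 at 24.6 ± 1.77 CPM (SD, n = 2). The nicotinic genes Chrna6, Chrna9, Chrna10 and Chrnb3 had 0 reads in both libraries. The muscarinic genes Chrm2 and Chrm5, named after their values were seen, were called as higher in replicate 2, at 2.59 and 5.98 CPM for Chrm2 and 2.36 and 6.09 CPM for Chrm5 in replicates 1 and 2. The nicotinic subunit gene Chrna7, also named after its values were seen, differed more, with 17 reads (0.658 CPM) in replicate 1 and 346 reads (11.7 CPM) in replicate 2. It was not tested, since it was under the threshold of 1 CPM in replicate 1.

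Markers of cholinergic neurons outside the forebrain were at or near 0. Of 6 such genes of motor and brainstem neurons, 5 had 0 reads in both libraries, among them Mnx1, Isl2 and Prph, and Calca had 0 reads in replicate 1 and 1 read in replicate 2. Genes that separate striatal interneurons from cholinergic cells of the neighbouring basal forebrain were not part of the lists, so these cells cannot be told apart here.

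Set against other neurons of the striatum, the cholinergic genes had a summed level near that of the GABA interneuron markers and far below that of the spiny neuron markers. The summed level of the 7 cholinergic genes was 116 CPM in replicate 1 and 157 CPM in replicate 2, against 113 and 176 CPM for the 11 GABA interneuron markers. Of the GABA list 6 of 11 were detected, and its median was 1.60 CPM. It was led by Sst (somatostatin) at 53.6 ± 22.3 CPM, followed by the transcription factor gene Lhx6 at 48.3 ± 10.03 CPM and Nos1 (neuronal nitric oxide synthase) at 23.9 ± 5.88 CPM, while Vip had 0 reads. All 6 detected GABA interneuron markers also had a ratio above 0 between the libraries, against 49.8% of all detected genes. Their median log2 ratio was 0.58. The exact binomial test called 0 of 6 at 2-fold and 5 by adjusted p alone. Pvalb, not detected and named after its values were seen, went the other way. It had 58 reads (2.25 CPM) in replicate 1 and 15 reads (0.507 CPM) in replicate 2. Pthlh (10 and 20 reads), Htr3a (0 and 41) and Chodl (0 and 76), also not detected, were higher in replicate 2. The 15 spiny neuron markers had a median of 424 CPM, led by Arpp21 at 2550.1 ± 688, Gnal at 2482 ± 281 and Pde10a at 1925 ± 67.6 CPM, and the lowest, Adora2a, at 106 ± 20.5 CPM, stood above Slc5a7 (SD, n = 2 for each). The same lists had medians per kilobase of exon of 3.54 CPM for the cholinergic genes, 1.32 CPM for the GABA interneuron markers and 74.0 CPM for the spiny neuron markers.

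**Figure D5:**
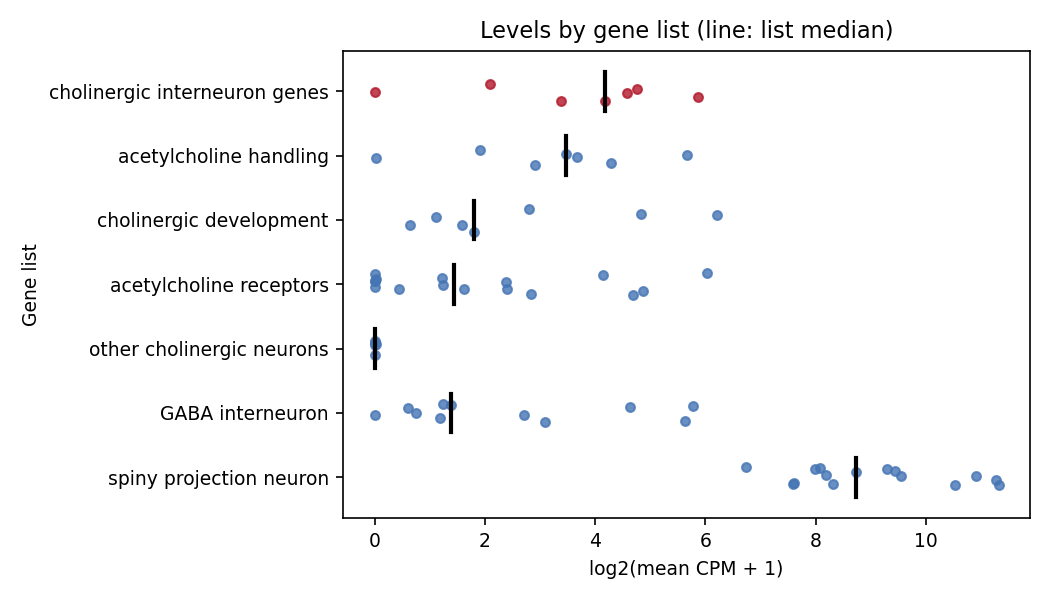
Log2(mean CPM + 1) of every gene in 7 lists, a point per gene, with a black line at each list median; vertical scatter within a list has no meaning. The cholinergic interneuron genes (red) lie between 0 for Gbx2 and the level of Slc5a7, below every spiny neuron marker, and the markers of other cholinergic neurons lie at or near 0.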

How the data were processed

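Both deposited files give raw read counts for each gene symbol in RNA pulled down with tagged ribosomes. STAR 2.0.0e, HTSeq and the build mm10 are named in the submitters' processing notes. The annotation, strand setting and read filters are not given in these sources, so reads of overlapping genes on opposite strands cannot be told apart. The 6 summary lines were left out. They held reads outside annotated exons (22.8% and 31.0% of all counted reads in replicates 1 and 2), reads with several alignments (27.9% and 13.6%) and ambiguous reads (1.84% and 2.08%).

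CPM was computed over named genes only. Exon lengths and coordinates came from GENCODE M21 (GRCm38, the assembly also called mm10), with 23113 symbols matched to a single gene and all 7 genes matched in the RefSeq promoter table. Intervals are exact Poisson or Clopper-Pearson and cover counting error only, since reads are not independent molecules. With a single group no contrast of conditions existed. Between the libraries an exact binomial test (scipy 1.17.1) was used with TMM factors of edgeR 4.0.16 from the detected genes. The test was checked on simulated counts that held counting error only. Spread between libraries beyond counting error was not simulated, so the check does not cover it. Size factors of DESeq2 1.42.0 were an alternative. The genes and lists were chosen with earlier results of these data known. Beside the 7 genes, the text names the 3 highest genes and the lowest gene of each list and, for Chat and Slc5a7, the 3 nearest genes by length-scaled level, with exceptions marked. Some genes taken by this rule are not reported here. Of the oligodendrocyte, microglial and endothelial lists only sums and counts are given.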

Additional observations from a re-analysis of the deposited data

How the results depend on the processing

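Counting all reads, summary lines included, in the total lowered the level of each of the 6 detected genes, while Gbx2 stayed at 0. The mean became 8.79 CPM for Chat, 29.2 for Slc5a7, 13.3 for Lhx8, 4.77 for Ecel1 and 11.7 for Tacr1. For Slc18a3 it became 1.70 CPM, within 1 SD of its main value. Means of the 7 genes with TMM scaling or without Rn45s stayed within 1 SD. The count of 6 detected genes was 6 at 0.5 CPM or at 10 reads, and 5 at 5 CPM. Without a replicate it was 6. The count of genes called between the libraries was 0 when genes under a mean of 5 CPM were dropped, which removes Slc18a3, and 5 without the fold requirement. It was 1 with total counts, with DESeq2 size factors and without a filter. Slc5a7 minus Lhx8, 1.10 on the log2(CPM + 1) scale, became -0.029 ± 0.061 per kilobase of exon, which divides by the exon lengths. That value lay within the spread, with opposite signs in the libraries. Slc18a3 minus Chat was -1.48 per kilobase, -2.41 on the log2(CPM + 0.1) scale and -2.45 without a pseudocount. The median of the 7 genes was 4.13 on the log2(CPM + 1) scale and 2.17 per kilobase. No paired analysis was possible because there is only 1 group. Without a replicate, each value is that of the other library. Of the 6 detected genes, Slc18a3 had the fewest reads, 52 and 135.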
